A study of Homo sapiens with 6 samples.

Results

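The nuclear-encoded subunits of the mitochondrial respiratory chain were followed by RNA sequencing in SK-MES-1, a human lung squamous cell carcinoma line. They were taken by gene symbol: protein-coding rows beginning with NDUFA, NDUFB, NDUFC, NDUFS or NDUFV (complex I, assembly factors left out), UQCR, COX4 to COX8 or ATP5, with SDHA, SDHB, SDHC, SDHD, CYC1 and CYCS added. This gave 93 of the 58735 genes listed, of which 19951 are protein coding. Complex I held 38 of them, complex II 4, complex III 10, complex IV 19 and complex V 21, and CYCS, which encodes cytochrome c, was kept on its own. NDUFA4 and NDUFA4L2 were counted with complex IV, where the NDUFA4 protein resides. UQCRQ, a small subunit of complex III, was set apart from the other members.

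The study transiently knocked down KRT6A, a keratin of stratified epithelium, and sequenced 3 groups of 2 libraries each. Control cells formed the group NC, and the groups si1 and si2 were the knockdowns. The labels do not spell out what the names si1 and si2 stand for and give no treatment time. Whether the replicates of a group were grown separately is not stated, so the p-values below measure the spread between these libraries, which may be technical.

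The respiratory chain passes electrons from NADH through complex I, and from succinate through complex II, to coenzyme Q, then through complex III and cytochrome c to complex IV, where oxygen is reduced. Complexes I, III and IV pump protons across the inner mitochondrial membrane, and complex V, the ATP synthase, uses the gradient to make ATP. A few core subunits are encoded in mitochondrial DNA, and the remainder, described here, are made from nuclear genes and imported, so that each complex other than complex II is built from products of both genomes.

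The libraries held 14948607 to 17401392 reads, and 12333 to 12439 genes reached 1 FPKM (fragments scaled by gene length and sequencing depth) in each. KRT6A, the stated target, had 0 reads in all 6 libraries, so its level cannot show whether the knockdown took place. A count of 0 allowed up to 0.0583 to 0.0678 FPKM when 3 reads are taken as the limit, which covers counting error only. Of 9 squamous or basal markers, KRT6A and DSG3 were at 0, and only TP63 (mean 7.78 FPKM) and PERP (86.1 FPKM) reached 1 FPKM. The summed level of the 9 ranged from 56.5 to 58.1 FPKM in NC, from 94.5 to 111 in si1 and from 123 to 126 in si2; its part in the results below was not tested. Simple epithelial keratins were abundant (KRT7 at a mean of 146 FPKM), and the 6 simple epithelial markers summed to 355 and 379 FPKM in NC, 376 and 370 in si1, and 264 and 277 in si2. The 6 fibroblast markers, with COL1A2 at 0, summed to 17.1 and 17.5 FPKM in NC, 24.99 and 20.004 in si1, and 23.4 and 22.9 in si2. The part of these sums in the results was not tested. Summed immune, endothelial and muscle markers stayed at or under 0.441 FPKM in every library.

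UQCRQ (chr5:132866560-132868031, plus strand, hg38) was the member with the largest difference between groups. The sequence GTCTGCA is shown for it because this heptamer had been picked from the same libraries in earlier work, as one carried by genes lower in si2, so its presence is not independent evidence. The 449-base 3' UTR of UQCRQ in GENCODE release 29 holds it at 2 places, 42 bases apart from start to start. The windows are printed 5' to 3' with the heptamer in capitals; the first lies at chr5:132867628-132867657, the second at chr5:132867670-132867699, both on the plus strand, and the one copy in ATP5F1E, a small subunit of the ATP synthase, at chr20:59028619-59028648 on the minus strand.
UQCRQ first copy: ctggaagaggaGTCTGCAttgtagtgtctc
UQCRQ second copy: aacttcctatgGTCTGCActgttgtgatat
ATP5F1E copy: ttaaaggaactGTCTGCAcagctgcatgat

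UQCRB, a further complex III subunit, carried 1 copy. These 3 genes were 3.75% of the 80 members searched, against 10.8% of the 10679 expressed genes with an annotated 3' UTR. ATP5F1E did not pass the test in si2 (log2 difference 0.13, adjusted p = 0.34), nor did UQCRB (-0.09, adjusted p = 0.421), whereas UQCRQ fell by 2.68 on the log2 scale, as described below. Another heptamer, ACTCTCT, picked in the same way for si1, was in the 3' UTR of 5 of 80 members (6.25%, against 9.55% of all genes): ATP5S, NDUFA10, NDUFA9, SDHC and UQCR11, and none of these passed the test in si1 or si2.

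The chain's messages had a higher median level than expressed genes in general. Of the 93 members, 80 had a mean of at least 1 FPKM and were tested, and their median was 23.4 FPKM, against 6.44 FPKM for all 12319 genes that passed the same filter and 7.42 FPKM for the 10762 protein-coding ones. Median levels were 19.0 FPKM in complex I, 12.03 in complex II, 25.9 in complex III, 50.7 in complex IV and 23.2 in complex V, and CYCS stood at 59.2 FPKM. NDUFS5, a small complex I subunit, had the highest mean level (257 FPKM), followed by ATP5F1B, the catalytic beta subunit of the ATP synthase (217 FPKM). At the low end, just above the filter, were UQCRHL, an intronless copy of UQCRH, at 1.18 FPKM, ATP5S, a factor of the ATP synthase taken in by its symbol, at 1.27 FPKM and NDUFA9 at 1.41 FPKM. The spread within a complex was widest in complexes I, III and V. All these levels depend on the gene length used, which for all 93 members equals the bases covered by any annotated exon. That length was 548 bases for NDUFS5 and 10391 for NDUFA9. Their reads per library were 2063 to 2584 and 191 to 310. The part of the length in the spread and ranking was not tested.

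**Figure D1:**
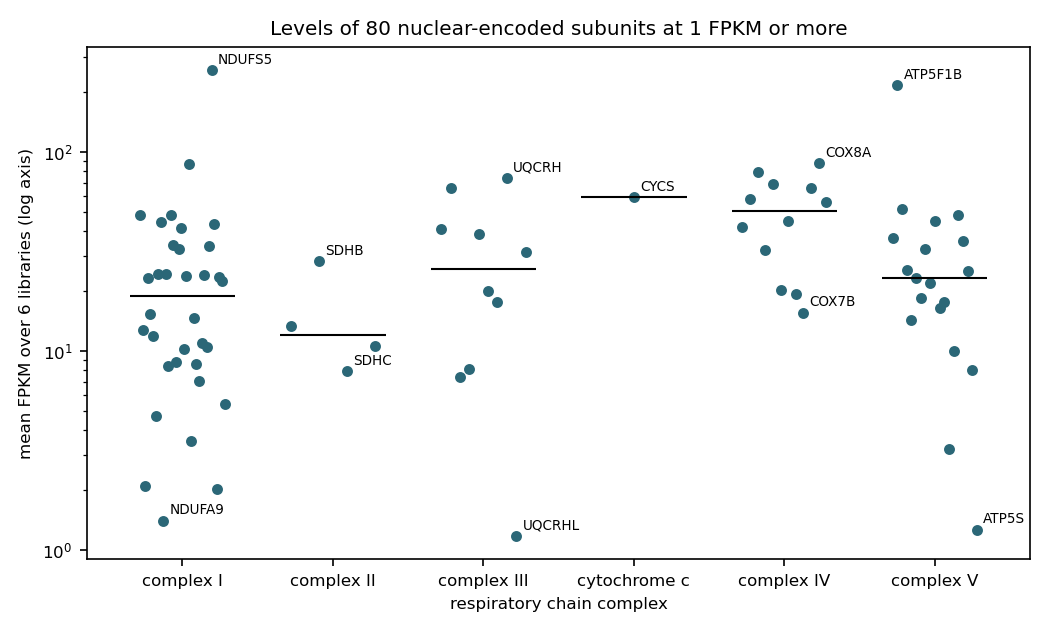
Mean FPKM over the 6 libraries (log axis) of the 80 tested subunits, by complex; each point is 1 gene and each bar the median of its complex. Complex IV has the highest median of the 5 complexes (50.7 FPKM), and complex I spans the widest range, from NDUFA9 at 1.41 to NDUFS5 at 257 FPKM.

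The 13 members under the filter included tissue-restricted isoforms, read-through genes and some subunits made in most cells. COX7B2 and ATP5MGL had 0 reads in every library, which allowed up to 0.246 and 0.248 FPKM. The read-through gene ATP5MF-PTCD1 was also listed at 0, but 93.8% of its exonic bases overlap other genes, so its reads may have been assigned elsewhere and no limit is given. COX4I2, COX6A2, COX8C and the read-through NDUFC2-KCTD14, whose exonic bases lie wholly within other genes, had 1 read each over the 6 libraries, COX7A1, a heart and skeletal muscle isoform, had 3, and COX6B2, a testis isoform, had 7. The common partners COX4I1, COX7A2 and COX8A were instead at means of at least 42 FPKM, and COX6B1, COX6A1 and COX7B at 69.1, 32.3 and 15.6 FPKM. NDUFA4L2, a hypoxia-induced relative of NDUFA4, stood at 0.556 FPKM. NDUFV2, NDUFA7 and NDUFA13 are core or supernumerary complex I subunits made in most cells, yet were listed at 0.377, 0.165 and 0.425 FPKM. In the annotation, 81.4%, 72.5% and 39.7% of the 75-base stretches of their main transcripts also occur in another gene, and how the authors counted such reads is not given in the sources used here, so these levels are uncertain. The same holds for 4 tested members, NDUFB8, ATP5PO, NDUFA11 and ATP5ME, of whose transcripts or exons 61.6% to 68.3% is shared with or overlapped by another gene, and none of these 4 was called in any comparison. They were taken at a limit of 50%. Below it, 36 of all 93 members, these included, overlap other genes over more than 10% of their exonic bases. COX8A (34.5% overlapped, 23.6% shared) and ATP5MF (29.4% shared) were called in si2 against si1. The part of shared reads in such calls was not tested. None of the 75-base stretches of the main UQCRQ transcript occurred in annotated transcripts of another gene, read in the same direction. The opposite direction and the rest of the genome were not searched. On the opposite strand, GDF9 overlaps 20.8% of the exonic bases of UQCRQ, and was listed at a mean of 0.129 FPKM.

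Most subunits differed little from NC. Differences were tested with limma on log2(FPKM + 1) over all 12319 genes, and a gene was called at a Benjamini-Hochberg adjusted p under 0.05. Against NC, 3 of 80 members rose in si1 and 2 fell, where 9.47% of all genes tested rose and 12.9% fell. In si2, 9 rose and 10 fell, against 13.6% and 15.4% of all genes. In the mean of both knockdown groups against NC, 3 rose and 6 fell, against 8.73% and 11.8%. As shares, 6.25% of the members were called in si1 (all genes 22.4%), 23.75% in si2 (29.04%) and 11.25% in the groups together (20.5%). The members' median difference was 0.05 in si1, 0.02 in si2 and 0.01 in both together, and 70, 48 and 62 of the 80 lay within 0.2 of NC on the log2 scale. Of all 12319 genes, 6603, 5957 and 7446 did so, in the same order. si1 and si2 share the NC libraries, so their differences from NC are not independent. CYC1 fell in each, while COX7A2 fell in si1 and rose in si2. In the groups together, NDUFA8 (0.30) and SDHA (0.22) were among those that rose, and CYC1 was among those that fell, at -0.57. CYC1 and UQCRQ held this call without each library in turn. NDUFA8 lost it without NC replicate 1, NC replicate 2 or si2 replicate 1 (adjusted p up to 0.147), and SDHA without any one library (up to 0.235). In a bulk measurement, fewer cells with a message cannot be told apart from less of it per cell.

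The counts depended in part on which libraries were kept. Leaving a library out, which leaves 1 library in its group, lowered some member counts and raised others. The counts over all genes, given in the closing section, changed in these fits as well. A change in count therefore need not be particular to the members. The si1 count of 5 became 3 without NC replicate 1 or 2 and 8 without si1 replicate 1. The si2 count of 19 became 7 without either NC library, 6 without si2 replicate 1 and 7 without si2 replicate 2. The count for both groups of 9 became 3 without either NC library, 5 without si2 replicate 1 and 18 without si1 replicate 1. With si1 left out of the fit, the si2 count rose to 26, and 17 of the 19 calls were kept. With no filter on low values, 7 of the 19 calls in si2 were kept, among them UQCRQ, CYC1, NDUFAB1, ATP5F1B, ATP5MPL and ATP5IF1, and the other 12 were lost (adjusted p 0.053 to 0.195). In si1, 4 of 5 were kept, and NDUFA8 was lost (adjusted p = 0.0538); in both groups together 3 of 9 were kept, CYC1 and UQCRQ among them. When the 4 knockdown libraries were treated as 1 group, 0 members passed in limma (5 at an unadjusted p under 0.05). The lowest adjusted p was 0.0678, for CYC1. Only 84 of all 12319 genes passed in that fit, so the loss was not particular to the members. Limma voom on reads recovered from the FPKM, in the design with 3 groups, called 17 members and 3544 of all genes. The 2 si1 libraries also stood apart from each other: 63 of 80 members were higher in replicate 2 than in replicate 1, by a median of 0.13 on the log2 scale, against 51.7% of all genes, and the part of this in the results was not tested.

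**Figure D2:**
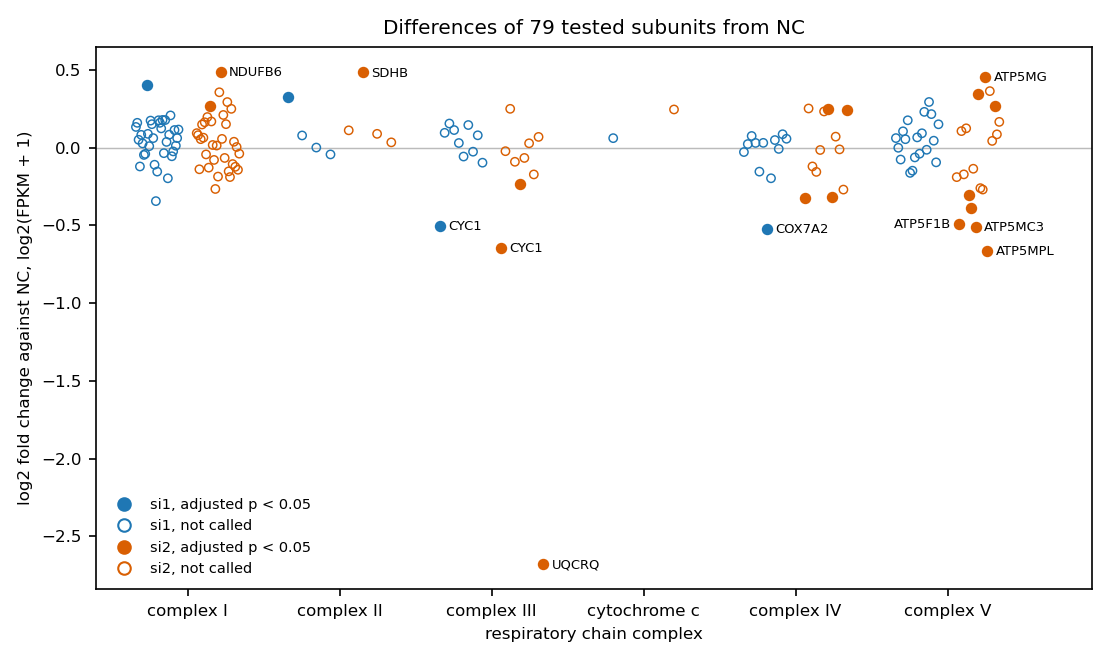
Log2 fold change of 79 of the 80 tested subunits in si1 (blue) and si2 (orange) against NC, by complex; filled points passed an adjusted p of 0.05. UQCRQ at -2.68 in si2 lies far below all others, and most points fall within 0.2 of 0.

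Complex III takes electrons from reduced coenzyme Q to cytochrome c, and held the largest difference of the whole chain. UQCRQ, subunit VII of the complex, was at 41.7 and 50.1 FPKM in NC, 42.1 and 43.3 FPKM in si1, and 6.45 and 6.11 FPKM in si2. The si1 libraries lay within the NC range, and both si2 libraries were below all others, at 13.7% of the NC mean. It fell by 2.68 in si2 (SE 0.0938, adjusted p = 3.18e-05), the lowest log2 fold change of the 12319 genes tested there, and was at -0.10 in si1 (adjusted p = 0.509). The difference of si2 from si1 was -2.59 (adjusted p = 1.64e-05), and its value for both groups together, -1.39 (adjusted p = 0.00024), averages these unlike groups. Between 136 and 1296 reads per library stood behind these levels. Under all 14 alternative settings the call in si2 held, with values of -2.86 to -2.55.

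CYC1 (chr8:144095027-144097525, plus strand), the cytochrome c1 subunit that hands electrons to cytochrome c, fell in both groups. Its level was 52.3 and 52.8 FPKM in NC, 37.5 and 36.2 FPKM in si1, and 34.3 and 32.2 FPKM in si2. No knockdown library reached the lower NC library. CYC1 fell by 0.50 in si1 (SE 0.0618, adjusted p = 0.00199) and by 0.65 in si2 (SE 0.0618, adjusted p = 7.27e-04), and si2 did not differ from si1 past the test (-0.15, adjusted p = 0.105). UQCRC1, a core subunit facing the matrix, fell by 0.23 in si2 (33.43 and 35.04 FPKM against 41.5 and 39.2 in NC, adjusted p = 0.036), a call lost without any one of the NC or si2 libraries (adjusted p up to 0.202). With UQCRQ set apart, 2 of the other 9 subunits fell in si2 and 1 in si1, and none rose. As shares, 22.2% fell in si2 and 11.1% in si1, against 15.4% and 12.9% of all genes, of which 13.6% and 9.47% rose. The 7 that were not called in si2 lay between -0.17 and 0.25, among them UQCRFS1, the Rieske iron-sulfur protein, at 0.03, and UQCRC2, the second core subunit, at -0.07. UQCRH and UQCRHL share part of their sequence, and neither was called.

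**Figure D3:**
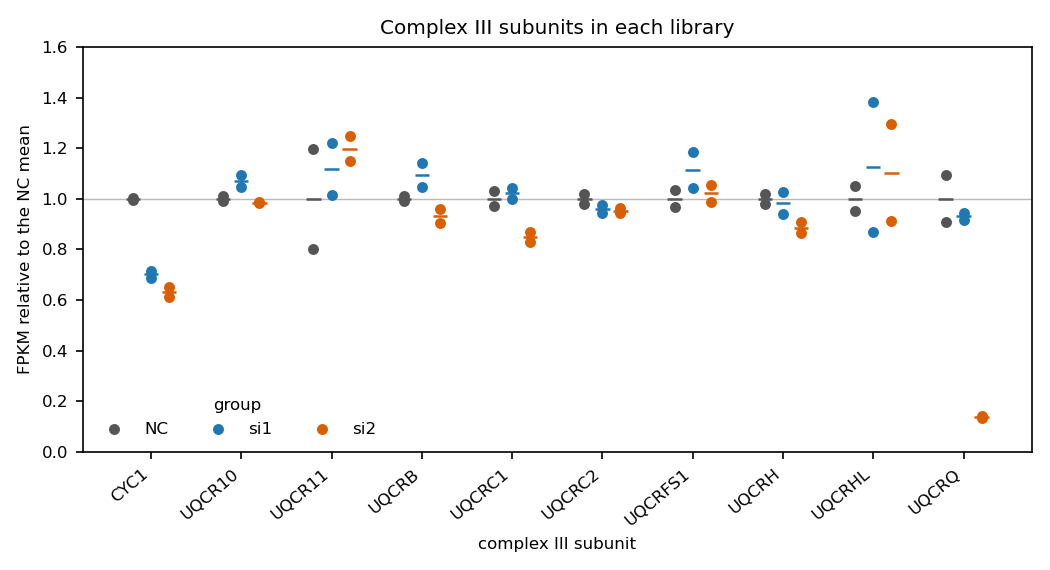
FPKM of the 10 complex III subunits in each library, divided by the gene's NC mean; points are libraries and bars group means. UQCRQ is low in both si2 libraries, at 13.7% of the NC mean, CYC1 is low in all 4 knockdown libraries, and the group means of the other 8 subunits lie between 0.849 and 1.198.

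Complex I, the NADH dehydrogenase, had 2 subunits that rose in si1 and 3 that rose in si2, and none that fell, of 34 tested. As shares, 5.88% rose in si1 and 8.82% in si2, against 9.47% and 13.6% of all genes, of which 12.9% and 15.4% fell. NDUFA8, an accessory subunit of the intermembrane space side, was at 38.5 and 37.85 FPKM in NC, 52.47 and 49.35 FPKM in si1, and 46.88 and 41.15 FPKM in si2. It rose by 0.41 in si1 (SE 0.0772, adjusted p = 0.0113), a call lost without NC replicate 1 (adjusted p = 0.0695) or 2 (0.0737), and its 0.20 in si2 did not pass (adjusted p = 0.0994).

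In si2, NDUFAB1, the mitochondrial acyl carrier protein, rose by 0.27 (28.2 and 27.2 FPKM against 23.3 and 22.4 in NC, adjusted p = 0.0194). NDUFB6, a membrane arm subunit, rose by 0.49 (24.4 and 33.6 FPKM against 19.9 and 20.3, adjusted p = 0.0461). The NDUFAB1 call was lost without any one NC or si2 library (adjusted p up to 0.129), and the NDUFB6 call without any library other than si2 replicate 1 (up to 0.179). The 31 complex I subunits not called in si2 lay between -0.27 and 0.36, and included the core subunits NDUFS1 at -0.15, NDUFS7 at -0.12 and NDUFS8 at 0.00. The median over complex I was 0.07 in si1 and 0.05 in si2.

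Complex II, succinate dehydrogenase, is the complex built wholly from nuclear genes, and of its catalytic subunits SDHA passed the test in si1 and SDHB in si2. SDHA, the flavoprotein, was at 11.84 and 12.03 FPKM in NC, 15.25 and 15.25 FPKM in si1, and 12.38 and 13.6 FPKM in si2. It rose by 0.33 in si1 (SE 0.0724, adjusted p = 0.0192), a call lost without NC replicate 1 (adjusted p = 0.116) or 2 (0.0924), and was at 0.11 in si2 (adjusted p = 0.286). The difference of si2 from si1 missed the threshold (-0.22, adjusted p = 0.0514). SDHB (chr1:17018722-17054170, minus strand), the iron-sulfur subunit, was at 22.9 and 25.95 FPKM in NC, 23.87 and 27.89 FPKM in si1, and 34.15 and 34.9 FPKM in si2. Both si2 libraries were above the other 4. SDHB rose by 0.49 in si2 (SE 0.0942, adjusted p = 0.0103), a call lost without NC replicate 1 (adjusted p = 0.071), si2 replicate 1 (0.0507) or si2 replicate 2 (0.0541), and exceeded si1 by 0.41 (adjusted p = 0.014). The membrane anchors SDHC and SDHD lay between -0.04 and 0.09 in both groups and were not called.

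CYCS, the mobile carrier between complexes III and IV, was at 54.8 and 54.8 FPKM in NC, 51.7 and 63.5 FPKM in si1, and 67.5 and 63.0 FPKM in si2. The si1 libraries lay on either side of NC and both si2 libraries above it. Its difference was 0.06 in si1 and 0.25 in si2 (adjusted p = 0.102), and it was called in 0 comparisons by limma; in si2 it passed an unadjusted p under 0.05 and the voom test.

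Complex IV, cytochrome c oxidase, had 12 tested members. In si1 only COX7A2 passed, lower than NC, and si2 had 2 that rose and 2 that fell. The si1 call was 8.33% of the tested members on the lower side, where the 12319 genes gave 12.9%. No member was called higher there, where those genes gave 9.47%. The si2 calls were 16.7% higher and 16.7% lower, next to 13.6% and 15.4% over the 12319 genes. Such si2 counts lie near the general shares and are not a result about complex IV. COX7A2 (chr6:75237675-75250323, minus strand), the widely expressed isoform of subunit VIIa, moved in opposite directions. It was at 44.7 and 49.0 FPKM in NC, 31.4 and 33.3 FPKM in si1, and 55.3 and 56.4 FPKM in si2. COX7A2 fell by 0.52 in si1 (SE 0.0688, adjusted p = 0.00264), rose by 0.25 in si2 (adjusted p = 0.0336), and was 0.77 higher in si2 than in si1 (adjusted p = 3.23e-04). The call in si1 and the difference between the groups held under all 14 alternatives. The rise in si2 was lost without any one NC or si2 library (adjusted p 0.0686 to 0.202). NDUFA4, once counted with complex I, rose by 0.24 in si2 (61.6 and 62.7 FPKM against 50.7 and 54.1, adjusted p = 0.0309).

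COX4I1, the common isoform of the largest nuclear-encoded subunit, was at 44.8 and 46.3 FPKM in NC, 42.2 and 47.2 FPKM in si1, and 36.9 and 35.6 FPKM in si2. It fell by 0.32 in si2 (SE 0.0712, adjusted p = 0.0163) and was at -0.03 in si1. COX7A2L, a relative of COX7A2 that takes part in supercomplex assembly, also fell by 0.32 in si2 (adjusted p = 0.0237) and by 0.26 in both groups together (adjusted p = 0.039). The si2 calls of NDUFA4, COX4I1 and COX7A2L were each lost without any one NC or si2 library, with adjusted p up to 0.183, 0.106 and 0.146, and the COX7A2L call for both groups was lost without the same libraries (up to 0.256). The 8 members not called in si2 lay between -0.27 and 0.25.

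Complex V, the ATP synthase, had the most calls in si2, with 3 of 19 tested subunits that rose (15.8%, against 13.6% of all genes) and 5 that fell (26.3%, against 15.4%). In si1, 0 passed in limma, with 4 at an unadjusted p under 0.05 (3 higher, 1 lower) and 2 higher by voom, and the 19 lay between -0.16 and 0.29. ATP5F1B (chr12:56638175-56646068, minus strand) was at 236 and 245 FPKM in NC, 230 and 252 FPKM in si1, and 170 and 173 FPKM in si2. Both si2 libraries were below the other 4, while si1 spanned the NC values. It fell by 0.49 in si2 (SE 0.059, adjusted p = 0.00171) and was at -0.00 in si1 (adjusted p = 0.998). ATP5MPL (chr14:103912288-103928269, minus strand), a small membrane-associated subunit, was at 12.25 and 10.97 FPKM in NC, 11.1 and 11.9 FPKM in si1, and 7.396 and 6.527 FPKM in si2. It fell by 0.66 in si2 (SE 0.0914, adjusted p = 0.00283), and both calls held under all 14 alternatives.

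Of the 3 genes that encode the identical proton-carrying c subunit, 2 fell in si2. ATP5MC3 fell by 0.51 (15.95 and 18.69 FPKM against 24.5 and 25.4 in NC, adjusted p = 0.00919), a call lost without NC replicate 2 (adjusted p = 0.0654) or si2 replicate 1 (0.0557). ATP5MC1 fell by 0.39 (14.8 and 16.9 FPKM against 21.3 and 20.7, adjusted p = 0.0163), a call lost without NC replicate 1 (0.0918), NC replicate 2 (0.0804) or si2 replicate 1 (0.0995). ATP5IF1, the inhibitor of ATP hydrolysis by the synthase, was at 23.6 and 23.7 FPKM in NC, 27.5 and 26.3 FPKM in si1, and 19.1 and 18.9 FPKM in si2. It fell by 0.30 in si2 (adjusted p = 0.0124; 0.0693 to 0.0833 without any one NC or si2 library), and its value of 0.18 in si1 did not pass (adjusted p = 0.0837). The difference of 0.48 between the groups, si2 lower, held under all 14 alternatives (adjusted p = 0.00135).

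The 3 complex V subunits that rose in si2 were ATP5MG (0.46, adjusted p = 0.0467), ATP5MD (0.35, adjusted p = 0.0425) and ATP5PF (0.27, adjusted p = 0.0333), parts of the membrane sector and the stalk. ATP5MG rested on 122 to 227 reads per library. The ATP5MD and ATP5PF calls were lost without any one NC or si2 library (adjusted p up to 0.202 and 0.18), and the ATP5MG call without any library other than NC replicate 2 (up to 0.219). In both groups together, ATP5F1B, ATP5MPL and ATP5MC1 fell (by 0.24, 0.34 and 0.28), and each call was lost without at least 3 of the 6 libraries, both NC libraries among them (adjusted p up to 0.153, 0.196 and 0.217).

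**Figure D4:**
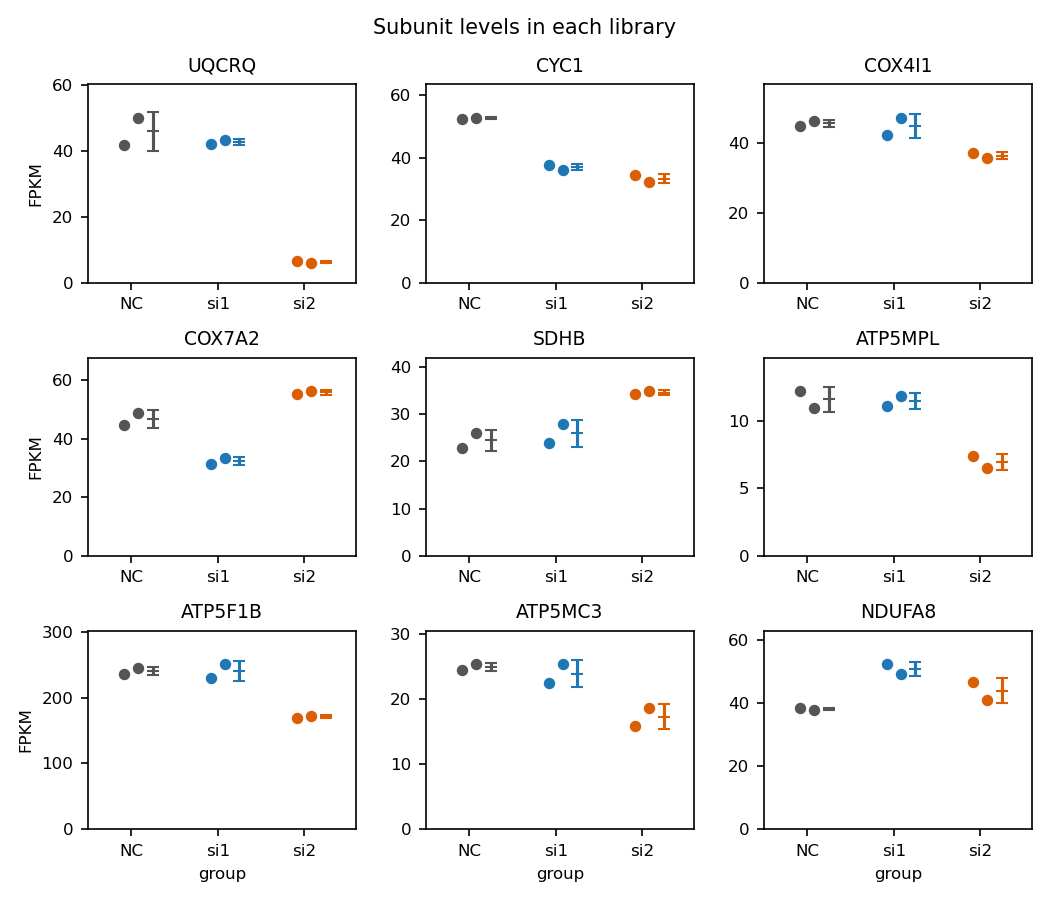
FPKM of 9 subunits in each library (points, replicate 1 then 2), with the group mean and SD of 2 libraries beside them; each vertical axis starts at 0. UQCRQ, ATP5MPL, ATP5F1B, ATP5MC3 and COX4I1 are lowest in si2, CYC1 is low in both knockdown groups, and COX7A2 lies below NC in si1 and above it in si2.

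The comparison of si2 with si1 uses NC only for the shared estimate of spread. In it, 5 of 80 members were higher in si2 and 13 lower, against 19.9% and 18.6% of all genes, so the share called, 22.5%, was below the 38.5% of all genes. The members' median was -0.03, and 47 of 80 lay within 0.2, as did 5128 of all 12319 genes tested. After UQCRQ, the largest differences were COX7A2, higher in si2 by 0.77, and ATP5MPL, lower by 0.65. Complex V gave 6 of the 13 members that were lower in si2: besides ATP5MPL these were ATP5F1B at -0.49, ATP5IF1 at -0.48, ATP5MC3 at -0.45, ATP5MF, a membrane sector subunit, at -0.36, and ATP5F1A, the alpha subunit, at -0.25. In complex I, NDUFB3 was higher in si2 by 0.36 (adjusted p = 0.0346) and NDUFAB1 by 0.26 (adjusted p = 0.0166), and the core subunits NDUFS3 and NDUFV1 were lower by 0.27 and 0.20. The count became 9 with no filter on low values, 8 without si2 replicate 1 and 7 without si2 replicate 2. It was 13 without either NC library or with NC left out of the fit, which ended the calls of ATP5F1A, ATP5PF, NDUFB3, NDUFS3 and NDUFV1. Of the 18 calls, 6 held without each library in turn, UQCRQ, COX7A2, ATP5F1B, ATP5MPL and ATP5IF1 among them.

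Summed over each complex, levels stayed closer to NC than the most changed subunits did. The sum over all 93 members was 2674 ± 74.6 FPKM (SD, n = 2) for NC, 2712 ± 144 for si1 and 2558 ± 22.9 for si2. Complex III summed to 334 ± 6.27 FPKM for NC, 322 ± 7.63 for si1 and 260 ± 1.34 for si2; without UQCRQ these were 288 ± 0.286, 280 ± 6.77 and 254 ± 1.58. Complex V summed to 672 ± 12.4, 690 ± 50.1 and 600 ± 10.8 FPKM, and complex II to 54.8 ± 2.56, 59.3 ± 5.49 and 66.8 ± 0.0268 FPKM. In each of these 3 complexes both si2 libraries lay outside the NC range, below it for complexes III and V and above it for complex II. Abundant genes weigh most in such sums, so a shift need not be shared by the whole complex. In complex II, SDHB alone averaged 24.4 FPKM in NC and 34.5 in si2. In complex V, the highest gene was ATP5F1B (mean 217 FPKM over the libraries), which fell in si2. Sums of complexes II and V without these genes were not computed. For complexes I and IV the mean si2 sums were 1.02 and 0.987 times the NC mean, and the si2 libraries overlapped the NC range. The sums are a description and were not tested.

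**Figure D5:**
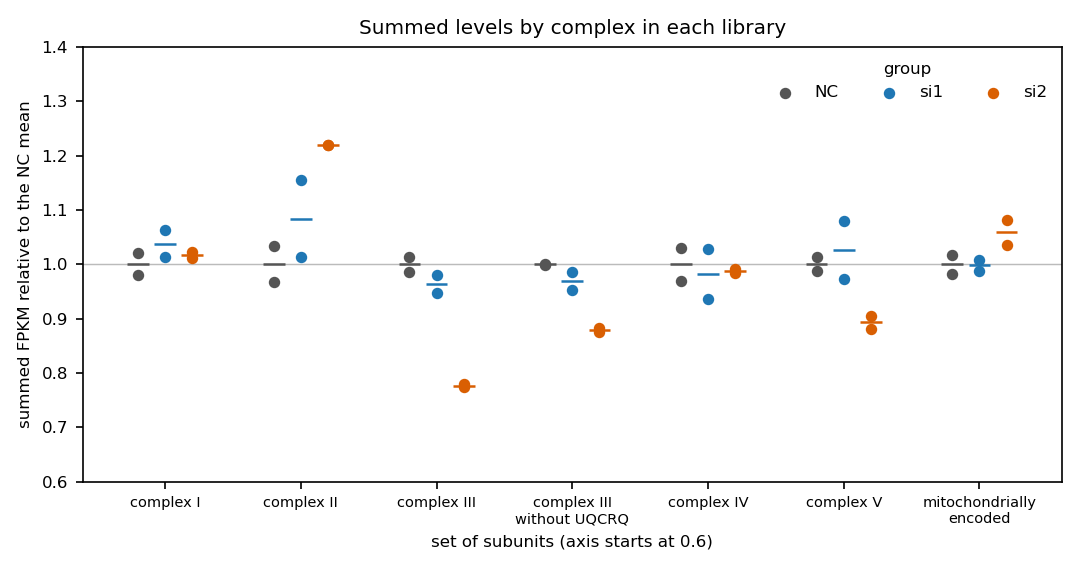
Summed FPKM of each complex in each library, divided by the NC mean (axis from 0.6); points are libraries and bars group means, with the mitochondrially encoded subunits beside them. Complex III and complex V are low in both si2 libraries, complex II is high, and complexes I and IV stay near 1. Each sum is weighted toward its most abundant genes.

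The 13 mitochondrially encoded subunits, the partners of these proteins, had a summed level of 68872 FPKM in NC, with 68763 FPKM for si1 and 72920 FPKM for si2. MT-ND1, a complex I core subunit, rose in si1 (0.19, adjusted p = 0.0167) and in si2 (0.45, adjusted p = 5.26e-04). MT-ATP8, of the ATP synthase, fell by 0.47 in si1, and MT-ND2 rose by 0.22 in si2. In si1, 1 of the 13 was called higher and 1 lower, and in si2 2 were higher and none lower, with limma. Of all genes, 9.47% were higher and 12.9% lower in si1, and 13.6% and 15.4% in si2.

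For the lists that follow, the shares of all genes called were 9.47% higher and 12.9% lower in si1, and 13.6% and 15.4% in si2, and counts near these shares are not a result about a list. Of 18 complex I assembly factors, 1 fell in each group: TIMMDC1 by 0.34 in si1 and NDUFAF3 by 0.29 in si2. Of 36 tested assembly factors of complexes II to V, 1 was higher in si1, and si2 had 5 higher and 1 lower. COA3, a complex IV factor, rose in both (0.33 and 0.36). LYRM7, which delivers the Rieske protein to complex III, rose by 0.48 in si2, and SDHAF1, which helps fit the iron-sulfur clusters of SDHB, fell by 0.60 there.

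Of 12 coenzyme Q synthesis genes tested, 3 were higher in si1, and si2 had 2 higher and 1 lower. PDSS2 (0.38 and 0.51) and COQ5 (0.35 and 0.52) were called in each. Of 14 citric acid cycle genes, 0 passed in si1 by limma or voom (4 were lower at an unadjusted p under 0.05), and 2 rose and 5 fell in si2, led by DLD at -0.68 and DLST at -0.54. Of 15 tested regulators of mitochondrial biogenesis, 1 was higher in si1, and si2 had 3 higher and 2 lower. TFAM, which packages and transcribes mitochondrial DNA, rose by 0.43 in si2, and PPRC1, a coactivator of nuclear genes of the chain, fell by 0.42.

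Promoters were searched for motifs of NRF1, ETS factors and YY1, which are known to act at respiratory chain genes. RefSeq promoters (GRCh38.p14, 250 bases before to 50 after the start) were matched by symbol for 70 of the 93 members, 62 of them tested. GCATGCGC, sought on both strands, was in 14 of the 62 (22.6%), against 5.76% of 8663 promoters of all tested genes. The YY1 motif AAGATGGC was in 10 (16.1%, against 5.81%), and the ETS motif ACTTCCGG in 8 (12.9%, against 9.81%). Of the 14 members with the NRF1 motif, 1 rose in si1 and 2 rose in si2, and none fell. Of the 10 with the YY1 motif, none was called in si1, and si2 had 2 higher and 1 lower. The 2 higher, SDHB and ATP5PF, carry both motifs and are the same 2 counted for NRF1. Of the 8 with the ETS motif, none was called in si1, and 1 was lower in si2. Of the 36 with none of the 3 motifs, 1 was higher and 1 lower in si1, and si2 had 4 of each. Counts this small lie near the shares of all genes called (9.47% higher and 12.9% lower in si1, 13.6% and 15.4% in si2). The windows show the NRF1 motif in SDHB and NDUFA8, which are described above, and in CYCS, and the ETS motif of UQCRQ on the opposite strand. They lie at chr1:17054214-17054243 (minus strand), chr9:122159763-122159792 (minus), chr7:25125411-25125440 (minus) and chr5:132866577-132866606 (plus), with the motif in capitals.
SDHB: aagccaaatggGCATGCGCcgctactgcgc
NDUFA8: ttgccggatgcGCATGCGCaggcgccgtgt
CYCS: catgctcgccaGCATGCGCgcgcaggtcct
UQCRQ: aatggtatctcCCGGAAGTtacctcacgac

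The genes whose levels followed UQCRQ most closely over the 6 libraries were found by Pearson correlation of log2(FPKM + 1), as a description. Among all tested genes, the ribosomal protein gene RPL3 was one of the 3 closest (r = 0.999), and it fell by 0.61 in si2. Among members they were ATP5F1B (0.987), ATP5MPL (0.970) and COX4I1 (0.954), which shared the low values in si2 but with smaller differences. The tested genes next to UQCRQ on chromosome 5 did not show a difference of its size in si2: AFF4, 7348 bases away, was at 0.16 (adjusted p = 0.12), SHROOM1, on the other side, at -0.35 (adjusted p = 0.0846), and KIF3A, farther out, fell by 0.49 (adjusted p = 0.0254). Of the 6 tested genes nearest CYC1, GPAA1 rose in si1 (0.63) and in si2 (0.26) and MAF1 in si1 (0.43), while EXOSC4, OPLAH and HGH1 fell in si2 (by 0.58, 0.44 and 0.31). The sixth, SHARPIN, was at 0.10 in si1 and -0.17 in si2, neither past the test.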

How the data were processed

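RNA from 6 SK-MES-1 libraries was sequenced. The deposited values are FPKM computed by the authors for 58735 genes, with gene length, on the build hg38, per the submitters' processing notes. How reads were aligned and counted, and whether strand was used, is not given in the sources used here. Every one of the 58735 coordinates matched GENCODE 29. FPKM times length gave whole reads for 100% of values (within 0.001 reads), with 14948607 to 17401392 per library.

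Genes averaging 1 FPKM or more, 12319 in all, were analysed as log2(FPKM + 1) with limma 3.58.1 (R 4.3.3), using 1 coefficient per group and a variance trend (3 residual and 4.03 prior degrees of freedom). Tests were two-sided, adjusted by Benjamini-Hochberg over all genes tested in a contrast. Fold changes on this scale understate those of low genes. The fit was tested on simulated data with the same changes in si1 and si2. Of 72 genes with 1.5-fold changes, 68.06% were recovered in si1 and 62.5% in si2, and of 64 with 2-fold changes 95.31% in each. The simulation gave all genes and groups 1 common spread beyond counting error. In the data, the chi-square of replicate reads per degree of freedom was 9.02 in si1, 3.65 in NC and 3.57 in si2. The simulated rates therefore need not hold for these libraries, above all for si1. No difference between si2 and si1 was simulated, so recovery in that comparison was not tested. Python 3.11.15 read the sequences. 3' UTRs came from GENCODE 29 and promoters from RefSeq.

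Up to 4 called members per complex and contrast, UQCRQ, members of extreme level, 3 genes most like UQCRQ and 2 called genes per list and contrast could be named; further called members, CYCS, uncalled members named as such, and neighbouring genes were chosen after their values were seen. A few genes this would name are not reported here, though the counts include them. Members and lists were chosen with earlier results of these data known. Alternatives changed the pseudocount, filter, scaling, libraries, groups and replicate block.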

Additional observations from a re-analysis of the deposited data

Results flagged for a closer look

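The effects of si1 and si2 differed, by limma's test of si2 against si1, for 18 members. The values below are log2 differences of si2 from si1. In complex I, NDUFB3 was at 0.36, NDUFAB1 at 0.26, NDUFV1 at -0.20 and NDUFS3 at -0.27. SDHB of complex II was at 0.41. In complex III, UQCRC1 was at -0.26 and UQCRQ at -2.59. In complex IV, COX7A2 was at 0.77, COX4I1 at -0.29 and COX8A at -0.36. In complex V, ATP5PF was at 0.22, ATP5F1A at -0.25, ATP5MF at -0.36, ATP5MC3 at -0.45, ATP5IF1 at -0.48, ATP5F1B at -0.49 and ATP5MPL at -0.65. With 4743 of 12319 genes called in the same comparison, a difference between si1 and si2 was common among all genes.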

How the results depend on the processing

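For single members, called results kept direction under every setting; 529 of these values kept the call and 184 lost it. Of uncalled results, 730 values kept direction and stayed uncalled, 40 gained a call and 25 changed sign and stayed uncalled. Leaving out each library in turn, the ranges on the log2 scale were, for si1, ATP5F1B -0.065 to 0.0645, COX8A -0.0782 to 0.252, ATP5MD -0.0783 to 0.2115, COX4I1 -0.1054 to 0.0499, UQCRC1 -0.0112 to 0.072, ATP5F1A -0.0134 to 0.1377, UQCRQ -0.2267 to 0.0344, SDHB -0.0288 to 0.1869, ATP5PF -0.0226 to 0.1134, NDUFAB1 -0.0164 to 0.0368, ATP5MC3 -0.1469 to 0.0224, ATP5MF -0.0469 to 0.2332, NDUFS3 -0.0015 to 0.1695 and ATP5MPL -0.0862 to 0.0601. For si2 the range was NDUFB3 -0.0051 to 0.0333, and for both groups COX8A -0.2563 to 0.0739 and ATP5MF -0.228 to 0.0521. In si1, ATP5F1B was at 0.0134 with median-ratio scaling and 0.0135 with voom, and ATP5MPL at 0.0357 with quantile normalization and 0.0013 with voom. The member counts, 9 for both groups, 5 for si1, 19 for si2 and 18 for si2 against si1, became 3 (both), 7 (si2) and 9 (si2 against si1) with no filter on low values, 17 (both) and 9 (si1) with limma voom on the recovered reads, and 0 (both) with the 4 knockdown libraries as 1 group. The counts over all genes, 2529, 2758, 3578 and 4743, became 1127, 1414, 1785 and 3130 with no filter, and the first became 84 with 1 knockdown group. Leaving out each library in turn gave member counts of 3 to 18, 3 to 8, 6 to 26 and 7 to 24, and counts over all genes of 701 to 2844, 1114 to 2443, 1490 to 4047 and 2973 to 4367, in the same order. Libraries of the same replicate number showed little shared deviation between groups (correlations of replicate deviations -0.052, 0.0503 and -0.0577). Whether these numbers pair the samples is not stated, and such correlations cannot exclude it. With the replicate number as a block the member counts were 8, 5, 15 and 14, and 2058, 2335, 3121 and 4314 for all genes. The cause of these differences was not tested. The voom and median-ratio alternatives and the count without members of uncertain reads were added after seeing the data. The planned count tests with their own scaling were not run, because the deposited unit is FPKM. With 2 libraries per group, 3 residual degrees of freedom limit what small differences can pass.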
